A study of Mus musculus with 3 samples.

Results

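The 38 mouse Hox genes described here were measured in embryoid bodies that lack Hopx and in embryoid bodies that keep 1 working copy of it. They were chosen by name, as the genes HoxA to HoxD with paralogue numbers 1 to 13 that an array probe could be assigned to through its RefSeq accession, and not by how they behaved. They are 38 of 32176 gene names or unnamed accessions on the array: 10 in HoxA, 10 in HoxB, 9 in HoxC and 9 in HoxD. Each gene was read by its brightest probe. The signal ratio of null over heterozygous cells was taken on each of 3 arrays.

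Embryoid bodies are balls of embryonic stem cells that are left to differentiate and give rise to tissues of all germ layers. The null group (Hopx-/-) and the heterozygous group (Hopx+/-) were each represented by 3 biological replicates at day 8 of a cardiac differentiation, and a wild-type group is not part of the comparison. Hopx encodes a small homeodomain protein of heart and progenitor cells that does not itself bind DNA. The stem cell lines came from blastocysts of each genotype, were established on STO feeder cells, a mouse fibroblast line, and were then maintained on inactivated mouse embryonic fibroblasts. Both groups passed through hanging drops and suspension culture before plating in a serum-free cardiac medium with VEGF, bFGF, FGF10 and ascorbic acid. The strain is not given in the labels, nor is it said if a genotype was 1 line or several, so p-values cover only the spread among these cultures, which may be technical, and a difference between genotypes cannot be told apart from a difference between lines. Each 2-colour Agilent array carried RNA of 1 null and 1 heterozygous culture. Of 43020 non-control spots, 61.9% to 72.9% were well above background per channel. Precision is limited by the number of arrays.

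In the labels Cy5 marks the null culture throughout, but array 3 ran against the others. As labelled, its ratios over the probes kept for testing correlated at r = -0.903 with array 1 and at r = -0.902 with array 2, while arrays 1 and 2 correlated at r = 0.939. In the authors' deposited table of processed values, array 3 also has the opposite sign to its scanner ratios (r = -0.867 over non-control spots). Array 3 was therefore turned, as that table has it, and every signed value below is null over heterozygous on that footing. Without array 3, 28 Hox genes were called higher and 1 lower, the same counts as with it, whereas with array 3 left as labelled limma called none, and none had an unadjusted p under 0.05. Hopx itself gave signals of 190, 198 and 142 in null and 1499, 1546 and 1544 in heterozygous cells on arrays 1, 2 and 3. Its log2 ratio was -3.13 (SE 0.11, n = 3 arrays, adjusted p = 2.8e-07 by limma). Its probe was well above background in null cells on all 3 arrays, and its position relative to the disrupted part of Hopx is not stated in the labels. All 8 cardiomyocyte markers were lower in null cells too (median -2.83), so the Hopx ratio does not by itself check the genotype labels.

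Hox genes encode homeodomain transcription factors that give cells their identity along the head-to-tail axis. In mammals they lie in 4 clusters, and genes at the same place in different clusters are paralogues that share a number. Low numbers sit at the 3′ end of a cluster, are switched on early and reach far forward in hindbrain and trunk; high numbers sit at the 5′ end, come on later and are limited to the lumbar, sacral and tail regions and to the limb and genital buds. Wnt, FGF and Cdx factors open the clusters in the posterior embryo, retinoic acid acts mainly on the 3′ genes, and Polycomb complexes keep silent genes closed.

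RefSeq promoter windows (GRCm38.p6, 250 bases before to 50 after the annotated start) were given for 22 of the 38 genes, 24 windows in all. The 3 printed here belong to Hoxa11, whose ratio is the highest of the members above background in both genotypes, to Hoxb8 and to Hoxd11. The Hoxb8 window holds 2 Cdx cores and a Pbx-Hox site. For Hoxd11, a posterior member, the window with a Cdx core is printed, and another window of this gene holds a Pbx-Hox site and no Cdx core. Capitals mark the Cdx core TTTATG and the Pbx-Hox site TGATNNAT, on either strand, and the Hoxa11 window holds neither.
Hoxa11, chr6:52245761-52246060, minus strand: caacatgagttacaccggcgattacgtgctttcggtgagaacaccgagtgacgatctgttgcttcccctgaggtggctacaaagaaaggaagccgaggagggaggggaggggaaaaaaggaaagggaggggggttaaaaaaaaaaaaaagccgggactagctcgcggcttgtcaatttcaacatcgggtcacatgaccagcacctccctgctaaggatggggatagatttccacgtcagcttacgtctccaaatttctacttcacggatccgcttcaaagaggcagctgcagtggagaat
Hoxb8, chr11:96281655-96281954, plus strand: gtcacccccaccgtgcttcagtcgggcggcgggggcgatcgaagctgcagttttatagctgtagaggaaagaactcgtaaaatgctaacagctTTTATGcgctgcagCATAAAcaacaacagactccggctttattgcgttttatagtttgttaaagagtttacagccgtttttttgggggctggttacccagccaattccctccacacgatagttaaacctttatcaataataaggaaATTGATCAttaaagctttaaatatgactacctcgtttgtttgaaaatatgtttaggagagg
Hoxd11, chr2:74679308-74679607, plus strand: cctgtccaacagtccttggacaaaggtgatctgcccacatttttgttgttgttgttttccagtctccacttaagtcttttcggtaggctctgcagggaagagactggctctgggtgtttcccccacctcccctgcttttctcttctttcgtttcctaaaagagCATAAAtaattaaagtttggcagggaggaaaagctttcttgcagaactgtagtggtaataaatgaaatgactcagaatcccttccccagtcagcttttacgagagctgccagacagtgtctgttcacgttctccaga

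The Cdx core was present in 5 of the 24 Hox windows (20.8%), those of Hoxa7, Hoxb8, Hoxd3, Hoxd4 and Hoxd11, against 11.9% of all 32817 windows of this length. The Pbx-Hox site, bound by Pbx and Hox proteins together, was present in 16.7% of Hox windows and 8.86% of all. AGGTCA, the half-site of nuclear receptors such as the retinoic acid receptors, was present in 29.2% and 16.3%. The Meis core TGACAG was present in 8.33% and 19.2%, and TATAAA in 16.7% and 13.6%. All were searched on both strands, and none of these 5 patterns contains another. The median G+C share was 57.7% in Hox windows and 52.7% in all windows, with a median of 14.5 and 7 CpG. These shares describe letters and were not tested.

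Most Hox genes gave a higher signal in null than in heterozygous cells. The median log2 ratio over all 38 was 0.70, against 0 over the 19802 genes tested. A gene was tested when its probe was well above background in null cells on all 3 arrays or in heterozygous cells on all 3, and called at a limma adjusted p under 0.05. Among the 26 Hox genes above background in both genotypes on every array, 20 were called higher, 1 was called lower and 5 did not pass, with a median of 0.76. Of all genes above background in both, 29.8% were called higher. A further 8 Hox genes (Hoxa2, Hoxa5, Hoxb1, Hoxc11, Hoxd3, Hoxd10, Hoxd12 and Hoxd13) entered the test through the null channel alone. All 8 were called higher, which the way they entered favours, so they add no weight. The remaining 4 (Hoxa6, Hoxb13, Hoxc8 and Hoxc12) were not above background often enough to be tested. In all, 34 were tested, 28 were called higher and 1 lower, where the background over all genes tested was 30.2% higher and 30.1% lower. Among the 26 genes above background in both genotypes, a rise of at least 2-fold was called for 12, against 4.91% of all such genes. In 19 of the 26, every null signal exceeded every heterozygous signal, against 25.2%. Over the 34 tested, which hold the 8 that entered through null, these counts were 15 (4.87% of all genes tested) and 27 (26.3%). Counts by cluster and position below hold those 8 as well.

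**Figure D1:**
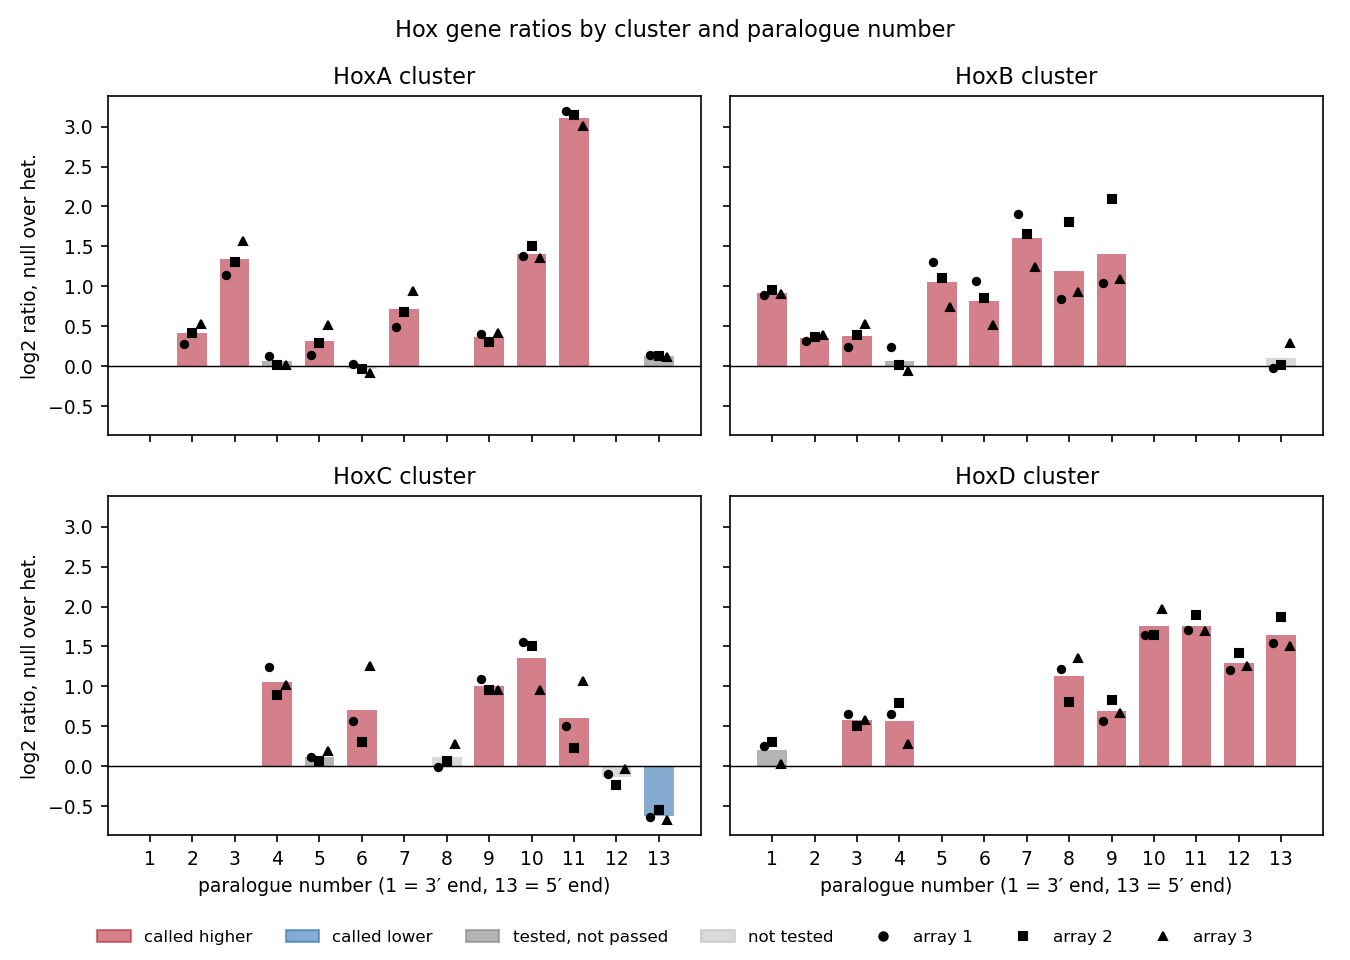
Log2 ratio of null over heterozygous signal (vertical axis) for each Hox gene, in 1 panel per cluster, against paralogue number (horizontal axis); bars are means of the 3 arrays, coloured by call, and points are single arrays with array 3 turned. Hoxa11 reaches 3.11, all 9 HoxD bars lie above 0, and Hoxc13 at -0.62 is the bar called lower.

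Signals are given in arbitrary units after loess and between-array scaling, for arrays 1, 2 and 3 in that order. They contain an added offset of 50, so that the median signal of probes not above background was 64.5 to 66.8, and the ratios of dim probes are drawn towards 0. Signals of different probes cannot be set against each other. SEs are limma's moderated SEs over n = 3 arrays. Since each culture is a mixture of cell types, fewer cells that express a gene and less RNA per cell cannot be told apart.

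In HoxA, 7 of the 9 genes tested were called higher, 2 did not pass, and the median over all 10 members was 0.39. Hoxa11, which patterns the forearm, kidney and uterus, had the highest log2 ratio of the Hox genes above background in both genotypes. Its signals were 1059, 765 and 752 in null and 116, 87 and 94 in heterozygous cells. The 2 groups were far apart, and the log2 ratio was 3.11 (SE 0.08, adjusted p = 1.3e-07), an 8.64-fold difference. The array carries 10 spots of this probe, and the single spots that passed flags ranged from 2.97 to 3.37 on array 1, from 2.75 to 3.38 on array 2 and from 2.79 to 3.23 on array 3. Its 3′ neighbour Hoxa10, a gene of lumbar vertebrae and the reproductive tract, gave 289, 236 and 273 in null and 112, 83 and 107 in heterozygous cells. No array overlapped between genotypes, and its ratio was 1.41 (SE 0.08, adjusted p = 2.9e-06). Hoxa3, which patterns the thymus, parathyroid and anterior neck, gave 262, 297 and 343 in null and 119, 120 and 115 in heterozygous cells. The null signals were again all above the heterozygous ones, and the ratio was 1.34 (SE 0.10, adjusted p = 1.1e-05).

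The change within HoxA was uneven from gene to gene. Hoxa7 (0.71, adjusted p = 0.00044) and Hoxa9 (0.37, adjusted p = 0.0043), a gene also active in blood progenitors, were higher by less, and the other Hoxa9 probe gave 0.48. Hoxa2 (fold bound 1.33) and Hoxa5 (fold bound 1.24) were above background on no heterozygous array. Such a fold bound sets the dim channel at its own signal or at the lowest signal well above background on that array, whichever is higher. In heterozygous cells that lowest signal was 56.9 to 65, below nearly all signals of the genes concerned. The fold bounds given here therefore equal or nearly equal the plain fold difference, as for Hoxa2 (1.33) and Hoxa5 (1.24). They are no stricter than that difference. They are taken from means over the arrays and allow for no spread, so single arrays can lie below them. Hoxa5 lost its call (adjusted p = 0.066 and 0.075) when array 2 or array 3 was left out. Hoxa4 (0.06, adjusted p = 0.59) did not pass. Hoxa13, the most 5′ member, gave 114, 101 and 102 in null and 103, 92 and 94 in heterozygous cells. These overlap, and at 0.13 (adjusted p = 0.20) it did not pass, although it follows Hoxa11 in the cluster.

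In HoxB, 8 of the 9 genes tested were called higher, 1 did not pass, and the median over all 10 members was 0.86. Hoxb7 gave 984, 1200 and 922 in null and 262, 383 and 390 in heterozygous cells. The groups were well separated, and the ratio was 1.60 (SE 0.12, adjusted p = 1.2e-05). Hoxb9, a thoracic gene, gave 208, 518 and 302 in null and 101, 122 and 142 in heterozygous cells, a ratio of 1.41 (SE 0.18, adjusted p = 0.00024). Hoxb8, a gene of spinal cord and myeloid progenitors, gave 150, 351 and 149 in null and 84, 100 and 78 in heterozygous cells, a ratio of 1.19 (SE 0.17, adjusted p = 0.00039). For both Hoxb8 and Hoxb9, array 2 stood highest, with ratios of 1.81 and 2.09, while the other arrays lay between 0.84 and 1.09.

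Hoxb5 and Hoxb6, genes of the lower neck and thorax, had ratios of 1.05 and 0.81 (adjusted p = 7.6e-05 and 0.00031). Along with Hoxb7 they were highest on array 1 and lowest on array 3, a different order from that of Hoxb8 and Hoxb9. Hoxb1, which specifies a single hindbrain segment and is among the earliest Hox genes in the primitive streak, gave 154, 141 and 141 in null and 83, 73 and 76 in heterozygous cells. It was above background on no heterozygous array and higher in null cells with a fold bound of 1.88 (adjusted p = 2.5e-05). Hoxb2 and Hoxb3 rose by less, with ratios of 0.35 and 0.38 (adjusted p = 0.0053 and 0.0058). Their signals overlapped between genotypes across arrays while null was the higher within each array, and the other Hoxb3 probe gave 0.16 and did not pass (adjusted p = 0.13). Hoxb4, also a factor of blood stem cells, gave 320, 692 and 542 in null and 271, 686 and 564 in heterozygous cells. These were bright and overlapping, and the ratio of 0.07 (adjusted p = 0.57) did not pass. Hoxb13, far from the rest of its cluster, was above background on 1 null array and no heterozygous array.

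In HoxC, 5 of the 7 genes tested were called higher and 1 lower, and the median over all 9 members was 0.60. Hoxc10, a gene of the lumbar spinal cord and hindlimb, gave 272, 260 and 208 in null and 92, 91 and 107 in heterozygous cells. The groups did not overlap, and the ratio was 1.35 (SE 0.12, adjusted p = 2.9e-05). Hoxc9, a thoracic gene, gave 1272, 1073 and 908 in null and 596, 550 and 467 in heterozygous cells, with a ratio of 1.01 (SE 0.08, adjusted p = 1.7e-05). Hoxc4 gave 669, 584 and 520 in null and 284, 315 and 256 in heterozygous cells, with a ratio of 1.05 (SE 0.09, adjusted p = 2.6e-05). All 3 were separated on every array.

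Hoxc6 and Hoxc11 rested more on a single array. Hoxc6 had ratios of 0.57, 0.30 and 1.26 (mean 0.71, SE 0.16, adjusted p = 0.0046), and without array 3 its ratio was 0.44. Hoxc11, above background on no heterozygous array, was higher with a fold bound of 1.51 (adjusted p = 0.0064). Its ratios were 0.51, 0.23 and 1.07, and its fitted ratio without array 3 was 0.37. In both, array 3 was the highest. Hoxc5 (0.12, adjusted p = 0.24) did not pass, and neither Hoxc8 nor Hoxc12 was tested. Hoxc13, at the 5′ end and known for hair and nail, was the only Hox gene called lower. It gave 99, 97 and 89 in null and 154, 142 and 141 in heterozygous cells, so that every heterozygous signal was the higher, with a ratio of -0.62 (SE 0.08, adjusted p = 0.00026).

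In HoxD, 8 of the 9 genes tested were called higher, 1 did not pass, and the median was 1.13. The 4 genes at the 5′ end, which pattern the limb, the genital bud and the tail, had ratios between 1.29 and 1.76. Hoxd11 gave 358, 383 and 370 in null and 109, 104 and 115 in heterozygous cells, with a ratio of 1.76 (SE 0.09, adjusted p = 1.1e-06). Hoxd10 gave 310, 258 and 279 in null and 98, 83 and 71 in heterozygous cells, with a ratio of 1.76 (SE 0.10, adjusted p = 1.9e-06). For both, the lowest null signal was over the highest heterozygous signal by a wide margin, though the other Hoxd11 probe gave a ratio of 0.85 (adjusted p = 4.1e-05).

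Hoxd13, the most 5′ gene of the cluster, gave 253, 302 and 236 in null and 87, 83 and 83 in heterozygous cells, with a ratio of 1.64 (SE 0.10, adjusted p = 3e-06). Hoxd12 gave 182, 172 and 166 in null and 79, 65 and 70 in heterozygous cells, with a fold bound of 2.45 (adjusted p = 5.3e-06). In heterozygous cells Hoxd12 was above background on no array, Hoxd13 on 1 and Hoxd10 on 2, so their heterozygous signals are close to those of probes not above background. From the processed signals of the scanner software, which carry no offset, the ratios of Hoxd10, Hoxd12 and Hoxd13 were 3.78, 5.27 and 4.29. The processed signals also differ in background subtraction and dye normalization, and the cause of the shift was not tested. Nearer the 3′ end, Hoxd8 had a ratio of 1.13, Hoxd9 0.69, Hoxd4 0.57 and Hoxd3 0.58 (adjusted p from 4.9e-05 to 0.002). Hoxd1 (0.20, adjusted p = 0.089) did not pass, although its null signals of 117, 110 and 103 were all above its heterozygous signals of 99, 89 and 101. Its ratio of 0.28 passed without array 3 (adjusted p = 0.024).

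**Figure D2:**
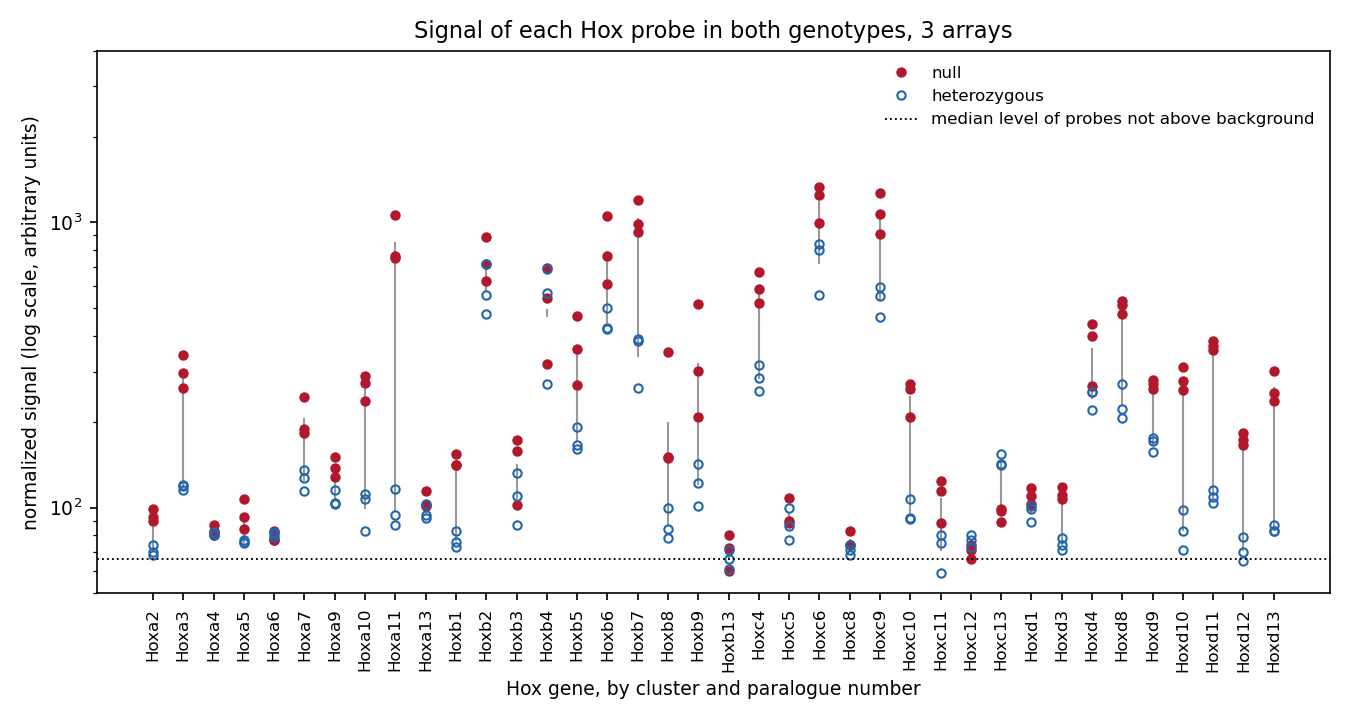
Normalized signal (log axis, arbitrary units) of the brightest probe of each Hox gene; filled points are null and open points heterozygous cells on 3 arrays, lines join the group means and the dotted line is the median signal of probes not above background. Points of 1 gene can be compared, points of different genes cannot; null signals of Hoxa11 are 752 to 1059 against 87 to 116, and for Hoxc13 the order is turned.

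Ordered by position, the median ratio over all members was 0.41 for the 7 anterior genes (paralogues 1 to 3), 0.71 for the 15 central genes (4 to 8) and 1.15 for the 16 posterior genes (9 to 13). Over the 4, 12 and 10 of these above background in both genotypes it was 0.36, 0.76 and 1.18. From the processed signals, the medians of the tested genes were 2.27, 1.01 and 2.69, so that anterior genes lay above central ones, and 0.77, 0.97 and 1.73 over those above background in both. All 3 genes of paralogue number 10 were called higher, at 1.41, 1.35 and 1.76, as were all 4 of number 9, at 0.37, 1.41, 1.01 and 0.69. The genes of number 13 went separate ways: Hoxd13 was higher, Hoxc13 lower, Hoxa13 did not pass and Hoxb13 was not tested. Within a cluster, Spearman's rho of ratio against paralogue number was 0.83 in HoxD (9 genes; 0.68, 0.92 and 0.75 on the single arrays). It was 0.19 in HoxA (10 genes), 0.31 in HoxB (10 genes) and -0.50 in HoxC (9 genes). Over the genes tested it was 0.15, 0.70, -0.36 and 0.83 in HoxA, HoxB, HoxC and HoxD, and 0.10, 0.27, 0.04 and 0.85 from the processed signals. These are descriptions over genes that share the same arrays, and a difference between clusters or positions was not tested.

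Genes beside and within the clusters were compared next. Of the nearest 4 protein-coding genes on each side of each cluster, 32 in all, 28 were tested. Of these, 13 were higher and 7 lower, where 30.2% and 30.1% of all genes tested were. Their median was 0.22, below that of the Hox genes. Nfe2 beside HoxC (2.05, adjusted p = 2.5e-06) and Skap1 beside HoxB (1.56, adjusted p = 3.5e-05) were among the higher. The homeobox gene Evx1, which follows Hoxa13 at the 5′ end of HoxA, had a ratio of 1.64 (SE 0.08, adjusted p = 1.1e-06), while Evx2, in the same place beside HoxD, was above background on no array. Inside HoxA, the antisense RNA Hoxa11os had ratios of 3.20, 3.25 and 3.01 (mean 3.15, SE 0.09, adjusted p = 1.3e-07), near those of Hoxa11. Whether each of these probes reads its own strand only was not tested. Of the other non-coding RNAs within the clusters, Gm53 in HoxB (0.46, adjusted p = 0.0021) was higher, and Haglr in HoxD (0.13, adjusted p = 0.22) did not pass. Hoxd3os1, tested through the null channel alone and above background on no heterozygous array, was higher with a fold bound of 1.22 (adjusted p = 0.024).

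The list of inducers of Hox genes in the posterior embryo, which also holds the cluster neighbours Evx1 and Evx2, was mixed. Of the 7 above background in both genotypes, 3 were higher (Cdx1, Fgf8 and Evx1) and 1 lower, with a median of 0.20. T, Wnt8a and Nkx1-2 were tested through the null channel alone, which favours a higher call. With them, 6 of 10 were higher (60%, against 30.2% of all genes tested) and the median was 0.78. T, the brachyury factor of the primitive streak, had ratios of 1.90, 3.26 and 3.08 and was higher with a fold bound of 6.72 (adjusted p = 1.5e-05). Wnt8a, a posterior Wnt ligand, was higher with a fold bound of 3.26 (adjusted p = 9.6e-06). Neither was above background on any heterozygous array. The caudal factor Cdx1 was higher on every array (1.47, 1.53 and 1.67), with a mean of 1.55 (SE 0.09, adjusted p = 2e-06), and Fgf8 had a ratio of 1.30 (adjusted p = 7.5e-05). Cdx2, another caudal factor, which also acts in trophectoderm, was lower on every array (-0.94, -1.12 and -1.23), with a mean of -1.10 (SE 0.09, adjusted p = 1.7e-05). The third caudal factor, Cdx4, was above background on no array, as was Wnt3a.

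Of 18 tested genes of retinoic acid supply and response, 5 were higher and 5 lower (27.8% each way, near the share of all genes tested), with a median of -0.04. Aldh1a2, the main retinoic acid-making enzyme of the early embryo, had ratios of 2.72, 2.48 and 2.32 (mean 2.51, SE 0.10, adjusted p = 4.4e-07). Stra8, a retinoic acid target of germ cells that was tested through the null channel alone, was higher with a fold bound of 1.66. The receptors Rxra (-1.45, adjusted p = 3.3e-06) and Rara (-0.59, adjusted p = 0.00047) were lower. The degrading enzyme Cyp26a1 (-0.14, adjusted p = 0.20) did not pass. Of 9 cofactors that bind DNA with Hox proteins, 2 were higher and 2 lower (22.2% each way), with a median of 0.06. Pbx2 (-0.26, adjusted p = 0.029) was among the lower, and Pbx3 (0.59, adjusted p = 0.0016) and Meis1 (0.26, adjusted p = 0.033) were higher.

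Of 23 tested Polycomb and Trithorax genes, which close and open Hox chromatin, 7 were higher (30.4%, near the share of all genes tested) and 5 lower (21.7%), with a median of 0.04. Phc1, a subunit of Polycomb complex PRC1, had a ratio of 1.72 (adjusted p = 1.3e-06). The methyltransferases of PRC2 went apart, with Ezh2 at 0.78 (adjusted p = 5.9e-05) and Ezh1 at -1.09 (adjusted p = 1.4e-05). Phc3, another PRC1 subunit, was lower (-0.85, adjusted p = 5.9e-05). Of 11 tested upstream and lineage factors, 4 were higher and 4 lower (36.4% each way), with a median of 0.06. Lin28b, an RNA-binding protein of embryonic trunk progenitors, was higher (1.19, adjusted p = 1e-05), and Nr6a1, a nuclear receptor of trunk elongation, was lower (-1.05, adjusted p = 0.00016). The zinc finger factor Zbtb16 (-2.37) and Gata4 (-1.52), a factor of heart and endoderm, were lower as well (adjusted p = 1.7e-06 and 4.2e-06).

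**Figure D3:**
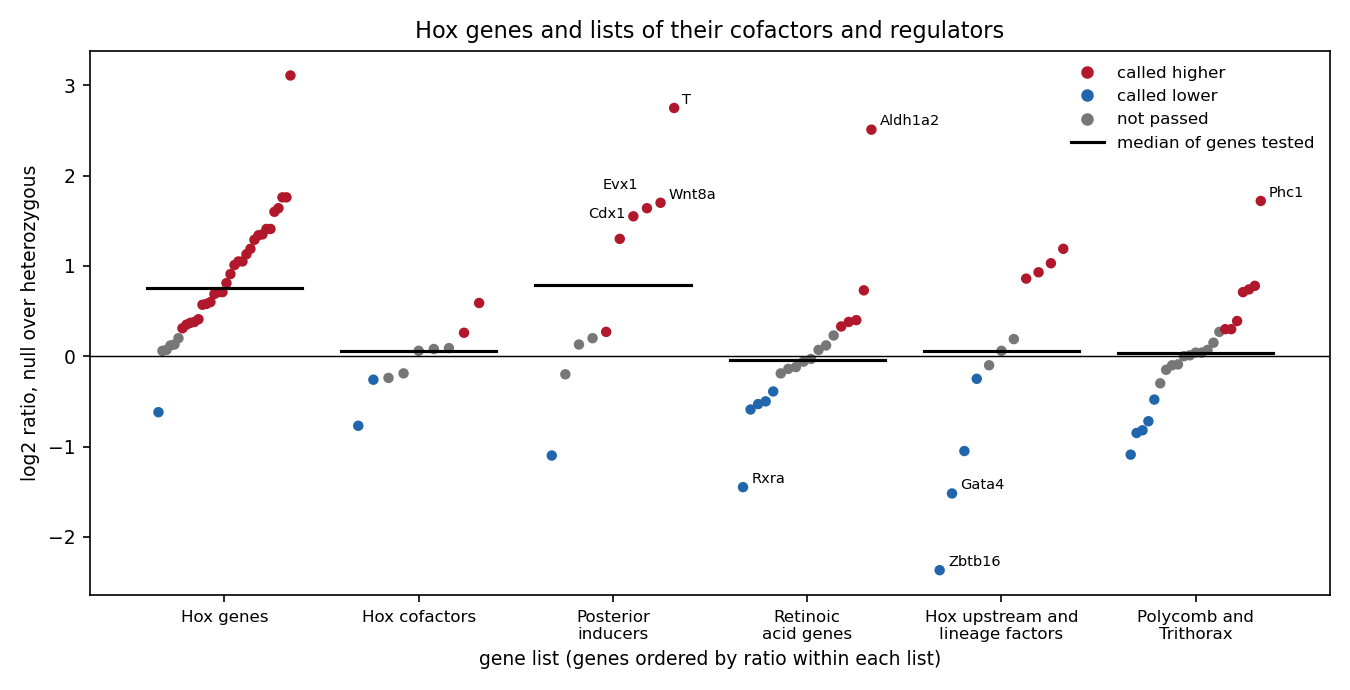
Log2 ratio of null over heterozygous signal (vertical axis) of each tested Hox gene and of each tested gene in 5 lists of Hox cofactors and regulators (horizontal axis); points are gene means over 3 arrays, coloured by call, and bars are list medians. The medians are 0.76 for Hox genes, 0.78 for posterior inducers (0.20 over those above background in both genotypes) and between -0.04 and 0.06 for the other lists.

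Markers of cell types that carry or lack Hox expression moved between the same cultures. Over all genes tested, 30.2% were called higher and 30.1% lower, and the counts below stand against these shares. All 8 cardiomyocyte markers were lower in null cells, with a median of -2.83, and their summed probe signals were 3230 to 4750 in null and 89700 to 116000 in heterozygous cells. Tnnt2 had no value on array 1 and is missing from the sums of that array. All 9 visceral endoderm markers were lower, with a median of -2.87 (sums 16300 to 22300 in null, 119000 to 146000 in heterozygous cells). Of 8 lateral and extraembryonic mesoderm markers, 3 were higher and 5 lower (sums 34900 to 42900 in null, 49300 to 51600 in heterozygous cells). Tbx4, a factor of hindlimb and allantois, had a ratio of 3.02 (SE 0.18, adjusted p = 2.9e-06) and was above background on 2 heterozygous arrays.

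Of 8 tested paraxial mesoderm markers, which mark Hox-expressing trunk tissue, 7 were higher (87.5%, against 30.2% of all genes tested). Their median was 0.48 (sums 2200 to 2320 in null, 1230 to 1540 in heterozygous cells). T, Meox1 and Mesp2 were tested through the null channel alone, which favours a higher call. Of the 5 others, 4 were higher with a median of 0.35. Msgn1 was above background on no array, and T, Meox1 and Uncx on no heterozygous array. Of 8 tested hindbrain and spinal cord markers, 6 were higher (75%) with a median of 0.58 (sums 4270 to 5130 in null, 1710 to 1760 in heterozygous cells). Olig2 and Neurog2 were above background on no heterozygous array, and of the 7 above background in both genotypes 5 were higher with a median of 0.82. Of 6 tested forebrain and midbrain markers, a region without Hox expression, 3 were higher (50%) and 2 lower (33.3%). Their sums were 9210 to 11400 in null and 2630 to 3090 in heterozygous cells, and Rax and En1 were above background on no array. Over the 3 of these above background in both genotypes, 2 were higher and 1 lower.

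Markers of undifferentiated cells and of feeder fibroblasts, a cell type with Hox expression of its own, were also higher in null cells. Of 6 pluripotency markers, 5 were higher (83.3%, against 30.2% of all genes tested) and 1 lower. Their median was 1.46 (sums 9730 to 11100 in null, 3610 to 4700 in heterozygous cells). Of 9 tested fibroblast markers, 7 were higher (77.8%) and 1 lower, with a median of 0.68 (sums 52200 to 75500 in null, 22500 to 37900 in heterozygous cells). These sums lack Col1a1 on array 1 and Postn on array 2, which had no value there. Col1a2 had a ratio of 1.59, Fap was above background on no heterozygous array, and Col1a1 (-0.19, adjusted p = 0.37) did not pass. The part of these cell types in the Hox differences was not tested.

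The size of the Hox ratios depended on the scaling. From the processed signals, 30 Hox genes were called higher and 1 lower, and the median of those tested was 1.48, against 0.76 with the offset. Hoxa11 reached 4.93, Hoxb1 3.04 and Hoxc13 -1.34. In the authors' deposited table, whose normalization is not known, 21 were called higher and 1 lower by the same test.

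**Figure D4:**
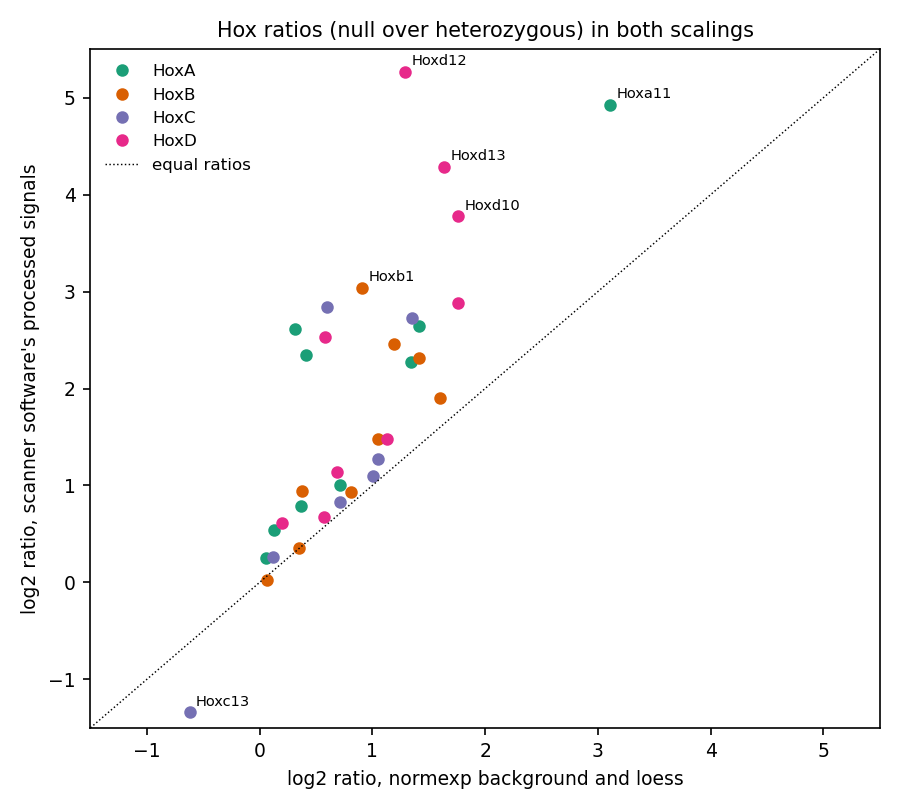
Log2 ratio of null over heterozygous signal for each tested Hox gene after normexp correction with an offset and loess (horizontal axis) and from the scanner software's processed signals (vertical axis), means of 3 arrays, coloured by cluster; the dotted line marks equal ratios. Hoxd12 lies furthest from that line, at 1.29 against 5.27, and Hoxc13 is below 0 on both axes.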

How the data were processed

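The deposited spot intensity values of both channels are output of Agilent Feature Extraction, version 11.5.1.1 in the file headers and 8.5.1.1 in the submitters' processing notes. A further table that the authors deposited was read as log2 ratios, whose scale, centring and normalization are not stated, with column medians of -0.10, -0.11 and 0.07. It gave the direction of array 3 and served otherwise as an alternative. The 3 arrays share 1 slide and 1 scan, which leaves no batch to block on. With limma 3.58.1 in R 4.3.3, foreground medians received normexp background correction (offset 50) and were normalized by loess within arrays, control and outlier spots having weight 0. Outlier spots were then left out, saturated spots kept, and spots of a probe averaged. With 2 arrays of one dye orientation and 1 of the other, a dye effect does not cancel fully. Signals per genotype were scaled between arrays by Aquantile, so that fold bounds are open to dye bias. Ratios of the 24552 of 39429 probes kept were tested against 0 with lmFit and eBayes, adjusted by Benjamini-Hochberg, and each gene took its brightest probe. Names came from RefSeq accessions (GRCm38.p6), matched for 28025 probes (71.1%); 14883 of the 19802 genes tested have a name, and the rest are array accessions. On simulated ratios with 200 changed of 24552 probes, this test recovered 100% of changes of at least 2-fold, and 6.32% of calls were false. In the data 30.2% of genes tested were called higher and 30.1% lower, a far larger share than was changed in the simulation. Its rates therefore do not carry over to the calls made here. The members, lists, promoter motifs and tests were chosen with earlier results of these data known. Named genes are all members, Hopx, and up to 4 called genes of each list with the largest change; Evx2, Cdx4, Wnt3a, Cyp26a1, Col1a1, the neighbours within clusters, genes tested through null alone and markers at background were named outside that rule, and some genes the rule allows are not reported here.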

Additional observations from a re-analysis of the deposited data

How the results depend on the processing

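Of 28 Hox genes called higher, 27 or 28 were called without any 1 array, with 1 called lower each time and medians of 0.80 to 0.84. Hoxa5 lost its call without array 2 or 3. With array 3 as labelled, limma called 0 higher and 0 lower (0 at an unadjusted p under 0.05), the median was 0.27, and Hoxa5 (-0.03), Hoxc6 (-0.13) and Hoxc11 (-0.11) changed sign. The median was 1.48 with processed signals, 1.01 with median centring and no loess (the median of all genes was then 0.23) and 0.60 in the authors' deposited table. That table lost the calls of Hoxa2, Hoxa5, Hoxa9, Hoxb2, Hoxb3, Hoxc11 and Hoxd4. Without moderation of the variance, 14 were called higher, and with a 2-fold minimum 15 were higher and 0 lower. The cause of these shifts was not tested. No background correction (29 called higher), no filter (28) and the mean of all probes (28) changed no count by over 1.5 times, and 20 of 26 were called with both channels required above background. With each channel as its own sample, no replicate block, 25 were called higher. Hoxa5, Hoxb2 and Hoxb3 lost their calls there, and the cause was not tested. Signal near background limits the size of ratios for the 8 Hox genes above background on no heterozygous array. These are not the 8 tested through the null channel alone, since they hold the untested Hoxa6, Hoxb13 and Hoxc12. The limit also holds for Hoxd3, Hoxd10 and Hoxd13, which were above background on only 1 or 2 heterozygous arrays.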
